A study of Mus musculus with 2 samples.

Results

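This account covers the KMT2D peaks that lay at long non-coding RNA (lncRNA) genes in HT22, a mouse line of immortalised hippocampal neurons. KMT2D was profiled by ChIP-seq in a wild-type HT22 clone grown to 70% confluency, as 1 library from the anti-KMT2D precipitate and 1 input library that received no antibody. The series also describes HT22 cells edited with CRISPR-Cas9 to delete the SET domain, the catalytic part of the enzyme; those cells were not analysed here. The data are a list of peaks called from the ChIP and the input library on the mouse genome build mm10, and a peak list holds no expression values, so the identity of the cells was not checked against marker genes. A peak was taken where its summit, the base with the most ChIP fragments, lay within the span of a lncRNA gene in the RefSeq gene table, extended by 500 bp on each side, and more than 2 kb from every end of a protein-coding gene. This rule used position alone and chose 498 of the 3706 peaks on chromosomes 1 to 19, X and Y (13.4%, exact binomial 95% interval 12.4 to 14.6). They lay at 430 of 12637 lncRNA genes (3.40%, 3.09 to 3.73), which is also the background for every count of lncRNA genes below. With 1 library of each kind there were no replicates, no test between conditions was possible, and all intervals cover counting error only.

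KMT2D is a methyltransferase of histone H3 lysine 4 that works within a large complex and is best known for placing monomethylation at enhancers, the distal elements that raise transcription from promoters. lncRNAs are transcripts without a known protein product. Some act as scaffolds or regulators, some serve as precursors of microRNAs or small nucleolar RNAs, and many are transcribed from or beside enhancers with no known role for the RNA. Most lncRNA genes in the RefSeq table are computer-predicted models with symbols that begin with Gm or LOC. AP-1 is a family of dimeric transcription factors, built from FOS and JUN proteins, that binds many enhancers and responds to growth signals and stress.

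Promoter sequence was examined first, since a peak at a start can be read against its DNA. RefSeq promoter windows on GRCm38.p6, the same build as mm10, run from 250 bp before to 50 bp after an annotated start (300 bp), and were available for 9533 of the 12637 lncRNA genes, as 11588 windows. Of these windows, 45 (0.388%), from 40 genes and 40 peaks, held the summit of a lncRNA peak. The AP-1 motif TGANTCA, which reads the same on both strands, was present in 17 of the 45 windows (37.8%, exact interval 23.8 to 53.5), against 9.31% of all lncRNA windows (1079 of 11588). The windows below are shown because they carry this pattern: 6 hold an AP-1 match and 2 do not. Each is printed 5′ to 3′ on the gene's own strand in lower case, with AP-1 matches in capitals.
Gm40491 (chr12:86833714-86834013, minus strand): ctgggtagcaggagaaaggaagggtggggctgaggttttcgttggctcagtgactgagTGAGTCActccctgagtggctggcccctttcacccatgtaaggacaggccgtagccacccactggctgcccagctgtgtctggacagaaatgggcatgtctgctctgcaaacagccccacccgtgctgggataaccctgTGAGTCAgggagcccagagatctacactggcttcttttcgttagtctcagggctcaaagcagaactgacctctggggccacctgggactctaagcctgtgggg
Gm34026 (chr8:106399795-106400094, plus strand): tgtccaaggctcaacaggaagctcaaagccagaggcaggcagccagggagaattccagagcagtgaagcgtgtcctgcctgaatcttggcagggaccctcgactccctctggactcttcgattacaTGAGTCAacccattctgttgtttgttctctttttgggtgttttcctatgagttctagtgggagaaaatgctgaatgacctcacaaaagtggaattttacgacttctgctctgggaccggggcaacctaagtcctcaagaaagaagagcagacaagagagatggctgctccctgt
Gm5546 (chr3:104360269-104360568, minus strand): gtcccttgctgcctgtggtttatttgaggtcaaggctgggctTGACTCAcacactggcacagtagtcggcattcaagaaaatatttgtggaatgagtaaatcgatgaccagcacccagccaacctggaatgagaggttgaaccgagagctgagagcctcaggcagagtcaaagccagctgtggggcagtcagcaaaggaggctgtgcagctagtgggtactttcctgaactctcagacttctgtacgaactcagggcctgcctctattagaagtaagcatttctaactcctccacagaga
Gm8883 (chr1:71887862-71888161, plus strand): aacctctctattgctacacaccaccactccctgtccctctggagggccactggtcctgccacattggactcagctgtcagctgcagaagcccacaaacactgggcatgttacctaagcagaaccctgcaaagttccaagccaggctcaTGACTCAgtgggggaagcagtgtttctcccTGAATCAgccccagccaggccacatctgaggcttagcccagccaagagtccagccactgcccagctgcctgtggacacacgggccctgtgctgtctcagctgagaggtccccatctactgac
Gm32861 (chr7:110288349-110288648, minus strand): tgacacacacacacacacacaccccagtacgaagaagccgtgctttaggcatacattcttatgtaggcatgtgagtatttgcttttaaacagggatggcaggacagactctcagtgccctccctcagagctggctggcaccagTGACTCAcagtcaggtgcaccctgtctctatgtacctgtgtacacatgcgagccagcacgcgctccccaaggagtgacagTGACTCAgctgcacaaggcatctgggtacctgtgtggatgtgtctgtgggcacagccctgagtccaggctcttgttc
Morrbid (chr2:128429302-128429601, minus strand): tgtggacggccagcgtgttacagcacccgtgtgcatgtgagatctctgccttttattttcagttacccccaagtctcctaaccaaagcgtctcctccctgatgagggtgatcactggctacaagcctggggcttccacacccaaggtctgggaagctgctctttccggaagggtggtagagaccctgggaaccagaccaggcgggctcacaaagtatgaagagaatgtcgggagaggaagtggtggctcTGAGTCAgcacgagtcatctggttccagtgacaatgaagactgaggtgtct
Gm42190 (chr3:19953905-19954204, minus strand): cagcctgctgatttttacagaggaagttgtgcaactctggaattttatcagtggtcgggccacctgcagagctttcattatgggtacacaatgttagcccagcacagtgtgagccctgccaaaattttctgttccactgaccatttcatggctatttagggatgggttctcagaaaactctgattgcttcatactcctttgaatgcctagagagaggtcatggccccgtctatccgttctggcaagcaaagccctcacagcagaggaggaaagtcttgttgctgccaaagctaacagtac
Gm9530 (chr1:155083215-155083514, minus strand): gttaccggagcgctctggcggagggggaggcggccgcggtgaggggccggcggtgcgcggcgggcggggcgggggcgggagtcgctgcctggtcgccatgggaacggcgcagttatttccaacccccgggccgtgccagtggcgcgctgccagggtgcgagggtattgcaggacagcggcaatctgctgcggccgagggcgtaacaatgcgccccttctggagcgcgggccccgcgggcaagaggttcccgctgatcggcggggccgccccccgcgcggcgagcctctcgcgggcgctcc

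Each of these windows spans 300 bp and was chosen to hold a summit, so any AP-1 match in it lay near the summit by design. The median distance from the summit to the centre of the nearest match was 24 bp (range 3 to 207) over the 17 windows, and it was at most 50 bp in 12 of them. These windows came from 15 peaks, so some matches were counted more than once. No distance expected from position alone was set beside the median. In the Gm32861 window, which holds 2 matches, the nearer was 3 bp from the summit, and the peak had a fold of 5.45 (95% Poisson interval 3.68 to 7.79). Fold, a value of the authors throughout, is the ratio of the ChIP pileup to the background at the peak's summit after 1 is added to each. The summit of the Gm8883 peak, 234776 bp from Fn1, lay 13 bp from its nearer match with a fold of 6.09 (4.29 to 8.40). Gm40491, an lncRNA gene 46734 bp from the nearest protein-coding end, at Irf2bpl, had a fold of 8.23 (5.91 to 11.2) and a match 17 bp from the summit. The Gm5546 peak had a fold of 7.03 (5.63 to 8.67) with its match 13 bp away, and the Gm34026 peak a fold of 7.51 (5.65 to 9.81) with its match 39 bp away. Morrbid, a lncRNA known for controlling the life span of myeloid cells, had its summit 28 bp downstream of its start and 26 bp from an AP-1 match, with a fold of 5.05 (3.31 to 7.42) from 24 ChIP fragments over a background of 3.95. The farthest match, at 207 bp, was that of Gm36495, whose peak had the highest fold among the windows with AP-1 (10.1, 7.44 to 13.3). Most but not all of the nearest matches thus lay within 50 bp of the summit.

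Windows with a summit but no AP-1 match were more mixed in composition, with quartiles of G+C at 51.3% and 68.0%, against 50% and 55% with a match. The strongest of them was Gm42190, 2923 bp from the ceruloplasmin gene Cp, with a fold of 12.2 (9.45 to 15.5) from 64 ChIP fragments over 4.32 in the background. Its window was 47.7% G+C with 3 CpG. The Gm9530 window beside its start was 76.3% G+C with 43 CpG, and that peak had a fold of 3.91 (2.75 to 5.39). The median fold was 5.68 (quartiles 4.77 to 6.56) over the 15 peaks with an AP-1 match in a window, and 4.33 (3.91 to 4.99) over the 26 peaks with a window that lacked one. One peak, shared by Gm32287 and Gm14321, counts in both sets because only the Gm32287 window holds a match. Median backgrounds were 4.32 and 6.58 fragments, and median ChIP pileups were 32 in both sets. The higher folds beside AP-1 matches thus came with a lower background rather than with more ChIP fragments. The quartile ranges of fold overlapped, and the part of base composition was not tested. Median G+C was 53.0% with and 60.0% without a match.

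**Figure D1:**
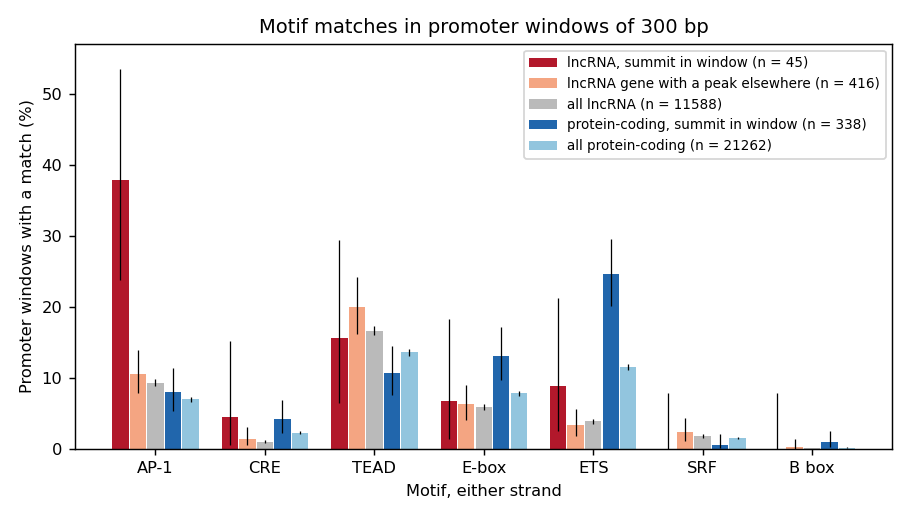
Share of RefSeq promoter windows of 300 bp with at least 1 match to each of 7 motifs, on either strand, for windows of lncRNA genes and of protein-coding genes; error bars are exact binomial 95% intervals. The AP-1 bar for lncRNA windows that hold the summit of a lncRNA peak stands at 37.8%, while the other AP-1 bars lie between 6.99% and 10.6%, and the highest ETS bar (24.6%) is that of protein-coding windows that hold a summit.

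In lncRNA genes with a peak elsewhere, AP-1 matches in windows without a summit were near the share of all lncRNA windows. That share includes windows within 2 kb of protein-coding ends, and windows farther away were not counted apart. In the 416 windows of lncRNA genes that had a peak elsewhere but no summit in the window, AP-1 was present in 44 (10.6%, 7.79 to 13.9), with an interval that holds the share of all lncRNA windows. Protein-coding windows with a summit held AP-1 in 27 of 338 cases (7.99%, 5.33 to 11.4), against 6.99% (6.65 to 7.34) of all 21262 protein-coding windows. Among lncRNA starts themselves, the share differed with the distance to protein-coding genes. The 34 lncRNA windows whose summit lay within 2 kb of a protein-coding end, and which the rule leaves out, held AP-1 in 2 cases (5.88%, 0.720 to 19.7). In these 34 windows the ETS motif CCGGAAG was found in 11 (32.4%, 17.4 to 50.5), and median G+C was 66.8% with 30 CpG. The 45 windows of lncRNA peaks had a median G+C of 54.7% with 5 CpG, and all lncRNA windows 48.3% with 4. Within the third of all lncRNA windows with the highest G+C (above 51.7%), AP-1 was present in 9 of 29 windows with a summit (31.0%, 15.3 to 50.8) and in 6.35% of all 3765.

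The other motifs searched showed no difference of that size, in percentage points, in windows with a lncRNA summit. ETS was present in 4 of 45 (8.89%, 2.48 to 21.2), against 3.89% of all lncRNA windows. The cyclic AMP response element TGACGTCA was present in 2 of 45 (4.44%, 0.543 to 15.1), against 0.975%. Both are overlapping windows, on opposite strands, of the peak shared by Gm32287 and Gm14321, so the same site counts in both. The TEAD motif GGAATG was found in 7 (15.6%, 6.49 to 29.5), against 16.6%, and the E-box CACGTG in 3 (6.67%, 1.40 to 18.3), against 5.89%. The SRF motif, searched as the CArG box, and the B box of tRNA promoters were in none of the 45 windows. A count of 0 there allows up to 6.67%, taken as 3 of 45 (exact upper limit 7.87%), and the shares of all lncRNA windows were 1.82% and 0.0949%. All motifs were searched on both strands, and none of the letters searched contains another of them. Each of these intervals held the share of all lncRNA windows, and a match is a description, not a site or a cause. With 45 windows from 40 peaks, moderate differences in the rarer motifs were not detectable.

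KMT2D summits were denser in lncRNA genes than in the remaining sequence. The extended lncRNA spans more than 2 kb from protein-coding ends covered 220.9 Mb, 8.79% of all sequence that far from such ends, and held 498 of the 2700 peaks there (18.4%). This gave 2.25 summits per Mb (exact Poisson 95% interval 2.06 to 2.46), against 0.961 (0.922 to 1.002) in the remaining 2291 Mb. The excess was present at each distance from protein-coding genes: 3.48 (3.01 to 4.01) against 1.68 (1.58 to 1.78) summits per Mb at 2 to 20 kb, 2.72 (2.37 to 3.10) against 1.09 (1.02 to 1.17) at 20 to 100 kb, and 0.991 (0.789 to 1.23) against 0.329 (0.292 to 0.369) beyond 100 kb. In each case the intervals inside and outside lncRNA spans did not overlap. Differences in read mappability between these regions were not tested.

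Within lncRNA genes the summits gathered at starts, although most lay further in. The strand and start were known for the genes of 397 of the 498 peaks. Of these, 87 summits (21.9%, 17.9 to 26.3) lay within 500 bp of the nearest annotated start and 115 (29.0%, 24.6 to 33.7) within 1 kb. The sequence within 500 bp of lncRNA starts held 9.92 summits per Mb (7.95 to 12.2), while the rest of the extended spans held 1.94 (1.75 to 2.13). That rest held all 411 other lncRNA peaks, and includes the spans and peaks of genes without a known start. Upstream of the nearest annotated start lay 49 summits, and from that start to 500 bp downstream another 49. Further downstream, 63 lay from 500 bp to 2 kb, 123 from 2 to 10 kb, and 113 beyond 10 kb. The nearest annotated start can lie inside the gene span, so some of the summits upstream of it were within the gene. Examples were a Gm35551 summit 9.03 kb and a Gm38424 summit 30.4 kb inside the gene from its 5′ end. The median fold was 4.45 (4.17 to 5.05) for the 87 summits near a start and 4.80 (4.67 to 5.01) for the other 310, with overlapping exact intervals of the median. Of all 498 summits, 452 lay inside the gene span itself and 46 in the 500 bp beside it.

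**Figure D2:**
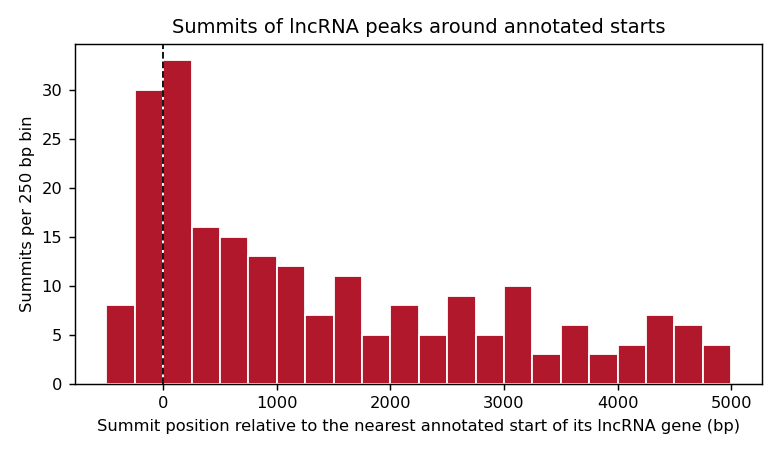
Number of lncRNA peak summits in bins of 250 bp, by position relative to the nearest annotated start of their lncRNA gene (bp, negative values upstream), for positions from 500 bp upstream to 5 kb downstream. The bins on either side of the start hold 30 and 33 summits, and each bin beyond 1500 bp holds 11 or fewer.

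The strength of lncRNA peaks was like that of other peaks far from protein-coding ends. Their median fold was 4.76 (quartiles 3.82 to 6.19, range 1.33 to 18.7), with an exact 95% interval of the median of 4.60 to 4.99. The other 2202 peaks more than 2 kb from protein-coding ends had a median of 4.73 (4.69 to 4.83), and the 1006 peaks within 2 kb of such an end 3.72 (3.62 to 3.79). At the median lncRNA summit, 32 ChIP fragments (quartiles 25 to 43) stood over a background of 5.79 (4.32 to 7.78). Of the lncRNA peaks, 153 (30.7%, 26.7 to 35.0) reached a fold of 5.75, which marks the upper 25% of the whole list, as did 25.2% of all 3706 peaks. The share was 29.6% for the other far peaks and 13.0% for those at protein-coding ends. A fold of 10 or more was reached by 13 lncRNA peaks (2.61%, 1.40 to 4.42), against 2.46% of all peaks. In these measures lncRNA peaks differed from peaks at protein-coding ends and did not separate from the other distal peaks.

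**Figure D3:**
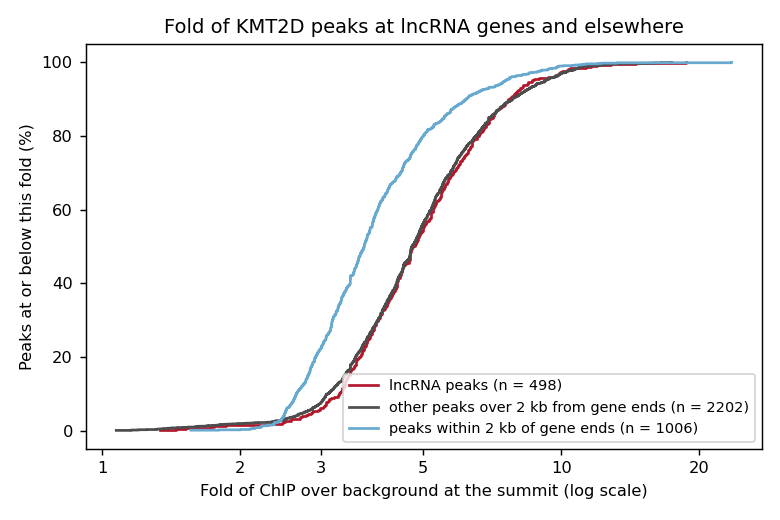
Cumulative share of peaks (vertical axis, percent) by fold of ChIP over background at the summit (horizontal axis, log scale) for the 498 lncRNA peaks, the 2202 other peaks more than 2 kb from protein-coding ends and the 1006 peaks within 2 kb of such ends. The first 2 curves run together, with medians of 4.76 and 4.73, while the third lies to the left with a median of 3.72.

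Folds inside and outside protein-coding genes had overlapping intervals of the median. Of the lncRNA peaks, 403 lay outside every protein-coding gene and had a median fold of 4.84 (exact interval 4.67 to 5.08), and 95 (19.1%) lay inside one and had a median of 4.50 (4.20 to 5.01). The distance to the nearest protein-coding end had a median of 30785 bp, and 83 of the 498 (16.7%) were over 100 kb from any. Only 9 summits (1.81%) lay within 500 bp of an annotated start of a protein-coding transcript. Just inside the 2 kb limit was 2410006H16Rik at 2059 bp (fold 2.09), and just outside it Gm36907 at 1998 bp (7.17). At the 500 bp limit on the span, 6330415G19Rik at 496 bp (8.54) was just inside and 4930579P08Rik at 502 bp (5.39) just outside.

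The strongest lncRNA peak lay in the predicted genes Gm33616 and Gm46131, at chr9:106405211-106405594, 23516 bp from Rpl29. Its summit had 115 ChIP fragments over a background of 5.19, a fold of 18.7 (15.5 to 22.5). The second was in Gm32725, 1026 bp downstream of its start, with 146 fragments over 9.08 (14.6, 12.3 to 17.1). The third was in Gm9530, whose nearest protein-coding gene is the immediate early gene Ier5, with 73 fragments over 4.76 (12.9, 10.1 to 16.1). Next were Gm42190, described above, Gm39623 with 53 fragments over 3.51 (12.0, 9.02 to 15.6) and Gm52703, inside the gene of the lipid-binding protein Osbpl9, with 76 over 5.62 (11.6, 9.20 to 14.5). The interval of each of these peaks overlapped that of the next, so the counts do not resolve neighbouring ranks. The remaining 14 of the 20 highest had folds from 9.65 to 11.3. They were in Gm39918 (3 peaks), F630040K05Rik, Gm36897, Mir100hg, Gm40673, Gm36495, Gm13523, Gm39145, Gm40677, Gm35880, Gm35090 and Gm15722. Predicted genes of the Gm and LOC series thus held most of the strongest peaks, and they are also 10351 of the 12637 lncRNA genes.

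By class of symbol, 325 of those 10351 predicted genes had a peak (3.14%, 2.81 to 3.49), as did 84 of 1784 genes named for RIKEN cDNA clones (4.71%, 3.77 to 5.80). Genes named after another gene, such as Igf1os, had 6 of 215 (2.79%, 1.03 to 5.97), microRNA host genes 2 of 14 (14.3%, 1.78 to 42.8) and other symbols 13 of 254 (5.12%, 2.75 to 8.59). None of 19 genes with the symbol of a small nucleolar RNA host had a peak that met the rule. A count of 0 there allows up to 15.8%, taken as 3 of 19 (exact upper limit 17.6%). Hosts under other symbols were not in this class. The peak of 2410006H16Rik, in the RIKEN class, had its summit 261 bp from the small nucleolar RNA gene Snord49b. The share rose with the length of the gene, from 2.06% (1.59 to 2.61) in the shortest of 4 equal groups (up to 3742 bp) over 2.56% and 3.55% to 5.44% (4.68 to 6.29) in the longest (above 19096 bp). Genes with a curated RefSeq transcript had a peak in 127 of 3318 cases (3.83%, 3.20 to 4.54) and the others in 303 of 9319 (3.25%, 2.90 to 3.63), with overlapping intervals. A longer span gives more room for a summit, and lengths differ between these classes. The limit of 2 kb to protein-coding ends also lowers these shares. Without it, 549 of the 12637 lncRNA genes (4.34%) had a summit, among them the host genes Snhg9 and Snhg18. How many genes of each class lie near such ends was not counted.

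Among 72 well-studied lncRNA genes present in the table, 7 had a lncRNA peak (9.72%, 3.999 to 19.01, against 3.40% of all lncRNA genes). Gene length was not matched in this comparison, and the share was 5.44% in the longest of the 4 length groups. Neat1, the architectural RNA of nuclear paraspeckles, had 63 ChIP fragments over a background of 9.08, a fold of 6.35 (4.90 to 8.10), with its summit (peak chr19:5845196-5846161) 460 bp outside the annotated span and 5034 bp from Frmd8. Pvt1, which lies beside Myc and is often co-amplified with it, had 2 peaks, with folds of 4.48 (3.46 to 5.70) and 4.73 (3.62 to 6.08), at 89087 and 128869 bp from Myc. Trp53cor1, the p53-induced RNA also called lincRNA-p21, had 33 fragments over 7.20 (4.15, 2.89 to 5.78), at 11925 bp from its neighbour Cdkn1a, the gene of the cell cycle inhibitor p21. Lncpint, another p53 target, had 23 fragments over 6.85 (3.06, 1.99 to 4.53). Chaserr, which restrains its neighbour Chd2, had 30 over 7.78 (3.53, 2.42 to 4.99), with the summit 540 bp downstream of an annotated start. The interval lay above the median of all lncRNA peaks (4.76) for Neat1 and below it for Lncpint, and held it for Pvt1, Trp53cor1 and Chaserr. The well-studied genes without such a peak included Malat1, Meg3, H19, Xist, Tug1, Gas5, Miat, Rmst, Sox2ot and Kcnq1ot1.

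Both microRNA host genes with a peak, Mir22hg and Mir100hg, were also on that list. Mature microRNAs of both are shown because they are known products of these transcripts, from 5′ to 3′ with the seed, bases 2 to 8, in capitals. Of the mature sequences placed in Mir100hg here, miR-100-3p and miR-125b-1-3p are not printed. The 5′ strand of let-7a-2 was not among those placed.
miR-22-5p: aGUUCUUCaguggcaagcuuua
miR-22-3p: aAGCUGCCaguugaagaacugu
miR-100-5p: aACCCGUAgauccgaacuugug
miR-125b-5p: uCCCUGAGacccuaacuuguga
let-7a-2-3p: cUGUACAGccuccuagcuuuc
Mir22hg had 2 peaks, 894 and 1592 bp downstream of its start, with 59 fragments over a background of 9.94 (fold 5.48, 4.20 to 7.05) and 53 over 10.4 (4.75, 3.58 to 6.18). The second summit lay 603 bp from the sequence of miR-22-5p. Mir100hg spans 238660 bp and had 4 peaks. Their folds were 3.54 (1.92 to 6.11), 5.33 (3.70 to 7.46), 10.3 (7.17 to 14.5) and 4.69 (2.75 to 7.54) in order along the gene. The third rested on 32 fragments over 2.19, the lowest background of the list, which 14 of the 498 peaks shared, and the first on 11 fragments, the lowest pileup that any lncRNA peak had. The summits lay at least 7319 bp from each mature microRNA of Mir100hg named here.

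Most lncRNA genes with a peak held 1 summit (362 of 430), while 52 held 2 and 16 held 3 or more. Gm12610, a gene of 223442 bp whose span overlaps Cdkn2b, the gene of the cell cycle inhibitor p15, had the most, with 7. They ran over 84228 bp, from 106.6 to 190.9 kb from the 5′ end, with folds from 3.03 (2.18 to 4.10) to 8.42 (6.48 to 10.8). Gm35551 had 5, with folds from 4.53 to 7.58, and its neighbour 4933433H22Rik had 3, of which 2 are the same peaks. The nearest protein-coding gene to both was Zfp36l2, which encodes an mRNA decay factor. Gm51955, nearest to Irf2bpl, had 4 peaks with folds from 2.99 to 8.23. Gm38424, Gm40121, Gm33485 and Gm31718 also had 4 each, with lowest and highest folds of 2.49 and 7.75 over the 16 peaks.

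The 3 peaks of Gm9530 showed how summits of 1 gene could differ. The peak at its start had 35 fragments over a background of 8.22 (3.91, 2.75 to 5.39), while those 7183 and 8218 bp downstream had 42 over 4.56 (7.73, 5.62 to 10.4) and 73 over 4.76 (12.9, 10.1 to 16.1). The interval of the peak at the start did not overlap those of the internal peaks. Kirrel3os, Gm31813, Gm12216, Gm46948 and Gm11476 also had 3 summits each. The nearest protein-coding ends to the Gm12216 summits, at 16423 to 24938 bp, were those of Irf1, which encodes a transcription factor of the interferon response, and to those of Gm46948, at 73282 to 86310 bp, those of Col1a2, a type I collagen gene. Their folds ran from 3.66 to 6.57 and from 4.08 to 6.38. The 3 peaks of Gm39918, at 9.86 to 11.3, lay on tRNA genes, as described next.

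**Figure D4:**
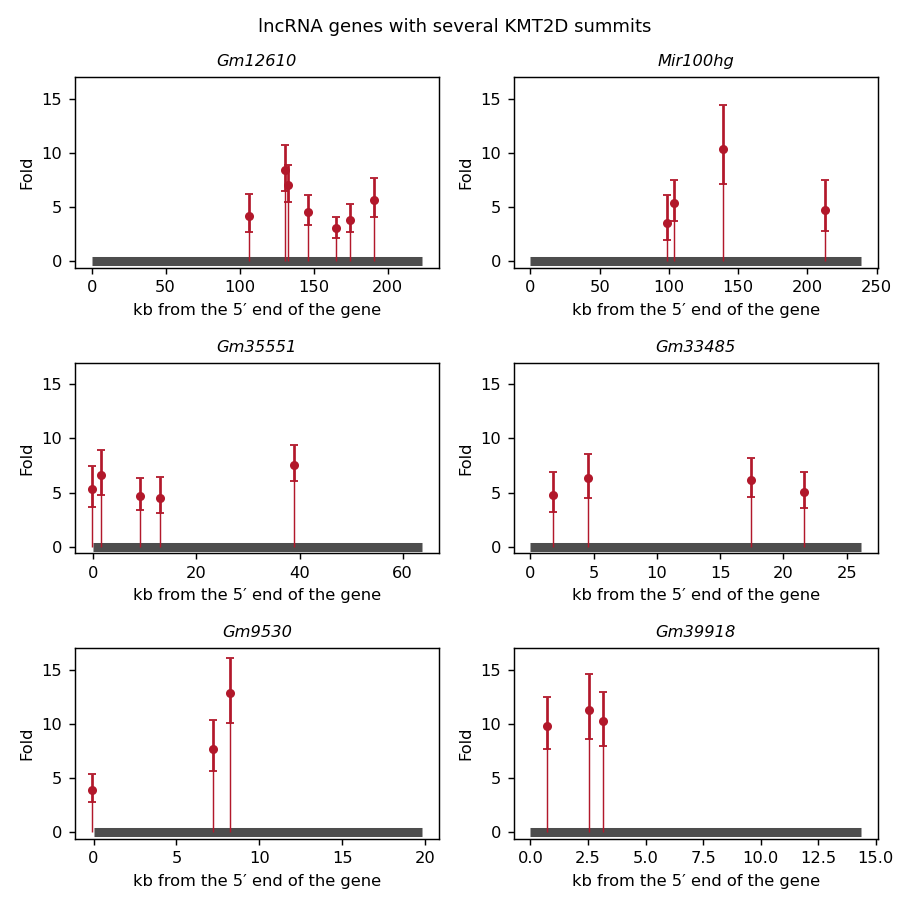
Fold of each summit (points, with exact 95% Poisson intervals) along 6 lncRNA genes with 3 or more summits; the grey bar is the gene and the horizontal axis is distance in kb from its 5′ end. Gm12610 holds 7 summits in its middle and 3′ part, and in Gm9530 the summit at the start (3.91) is lower than the internal ones (7.73 and 12.9).

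Some lncRNA peaks lay on genes for small RNAs that sit inside or beside an lncRNA gene. Within 500 bp of a small RNA gene were 23 of the 498 summits (4.62%, 2.95 to 6.85), near the 4.34% of all 3706 peaks, and 18 of them were at tRNA genes. Their median fold was 6.14 (4.84 to 7.88), against 4.71 (4.52 to 4.93) for the other 475. The ChIP pileup was 42 fragments at the median against 32, while both sets had a background of 5.79. The 3 peaks of Gm39918 each covered a histidine tRNA gene, with 66, 56 and 67 fragments over backgrounds of 5.79, 4.04 and 5.62. Gm35090 covered an asparagine tRNA gene (9.73, 7.37 to 12.6), and 6330415G19Rik an arginine tRNA gene (8.54, 6.50 to 11.0). C920006O11Rik covered Rn7sk, the 7SK RNA that restrains transcription elongation, with 42 fragments over 6.05 (6.10, 4.43 to 8.19). Vaultrc5, a short vault RNA gene that the table counts as lncRNA, had 45 fragments over 4.32 (8.64, 6.35 to 11.5). At these sites a peak of the small RNA gene and a peak of the lncRNA gene cannot be told apart.

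A further 9 lncRNA peaks (1.81%, 0.830 to 3.40) had a background above 20 fragments, where 2.75% of all peaks did. Of these, 7 had folds from 1.33 to 1.86 over backgrounds of 114.5 to 334.7 fragments. They lay in AY036118, 2700054A10Rik, Gm40237 and Gm36876, the first 3 with 2 peaks each. The other 2, in Gm40371 and Gm52861 on chromosome 6, had folds of 5.48 (4.78 to 6.25) and 7.92 (7.29 to 8.58) over 39.3 and 73.4 fragments. The Gm52861 value had the highest pileup of the class, 588 fragments, and is the only lncRNA peak whose pileup was not recovered within the tolerance. These 9 peaks were picked for their background, so their separation from the rest in that measure follows from the choice. Their ChIP pileups ran from 202 to 588 fragments, against a median of 32 over all lncRNA peaks.

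**Figure D5:**
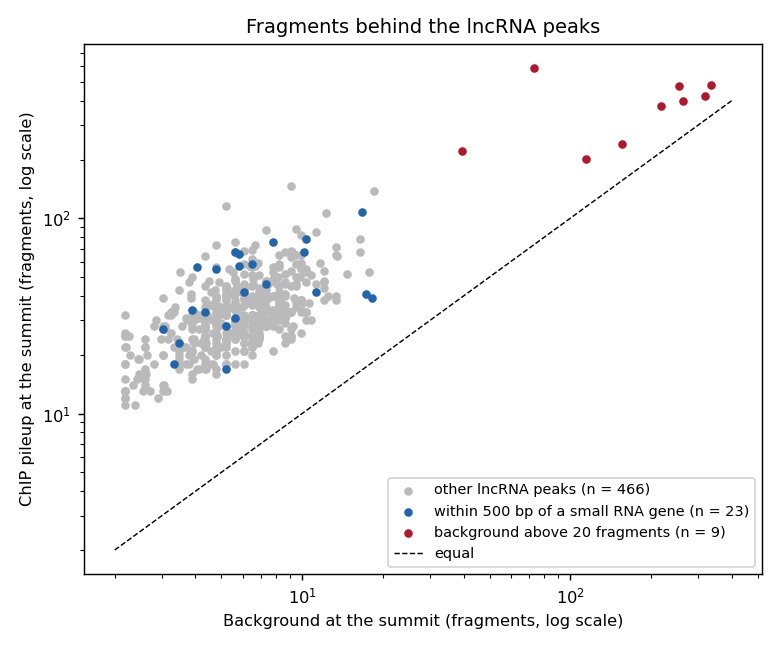
ChIP pileup against background at the summit (fragments, both axes on a log scale) for the 498 lncRNA peaks; the dashed line marks equal values. The 23 peaks near small RNA genes spread over the main cloud, from 17 to 108 fragments (median pileup 42, against 32 for the others), and the 9 peaks with a background above 20 lie to the right.

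Across chromosomes, chromosome 11 had the most lncRNA peaks (47), followed by chromosome 4 (46) and chromosome 1 (40), while X had 4 and Y none. As a share of all peaks on the chromosome they were highest on chromosome 1 (22.2% of 180) and chromosome 12 (21.4% of 131), and lowest among the autosomes on chromosome 19 (7.30% of 137). As a share of lncRNA genes, chromosome 15 was highest, with 33 of 534 (6.18%). The median background of the lncRNA peaks ran from 2.41 fragments on chromosome 18 and 2.81 on X to 7.35 on chromosome 15 and 7.78 on chromosome 11, and the part of DNA copy number in these counts was not tested.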

How the data were processed

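KMT2D ChIP-seq and input libraries (1 each) were compared as 1 peak list on mm10. Per the submitters' processing notes, Bowtie2, Picard and MACS2 were used; versions, settings and read totals were not given in the sources used here. Per the file's layout, the authors deposited a fold per peak, which sets ChIP pileup against background where the pileup is highest. They also deposited −log10 q and p-values, and a score that was not used. The ChIP pileup and background were solved from the deposited fold and −log10 p, taking the fold as (pileup + 1)/(background + 1) and a Poisson p-value, as MACS2 does; 3690 of 3738 peaks (98.7%) were recovered within 0.001. Poisson intervals vary the pileup and hold the background fixed.

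Genes came from the RefSeq table of GRCm38.p6 (49591 of 49997 with a position on a main chromosome sequence), and starts and strands from its promoter windows. Positions are counted from 1. Shares have exact binomial intervals and medians exact order-statistic intervals. Eligible sequence was counted between the first and last gene of each chromosome. Procedures were tested on simulated data. Python 3.11.15, SciPy and NumPy were used.

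Named genes were those of the 20 highest folds, those with 3 or more summits, members of a list of 83 well-studied lncRNA symbols (76 in the table, 72 as lncRNA) that had a peak, and the peaks beside each limit; others, and the sequences printed, were picked with their values in view. The members and lists were chosen with earlier results of these data known. The planned search of peak sequence was limited to promoter windows, since no genome sequence was used here. No windows were available for chromosome 18, so starts were not known for its 422 lncRNA genes, which held 8 lncRNA peaks. Alternatives were other windows, stricter peak thresholds, the whole peak interval, curated genes and peaks left out.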

Additional observations from a re-analysis of the deposited data

Results flagged for a closer look

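Outside the position rule, 32 peaks lay on unplaced or random sequences, where lncRNA genes were not placed; they showed a signal above input, with folds from 1.13 to 2.95, in data that no comparison above uses.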

How the results depend on the processing

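The count of lncRNA peaks (498), the count of lncRNA genes with a peak (430) and the median fold (4.76) kept within 1.5 times, or within the interval of the median, with no extension of the span, a 2 kb extension, limits of 1 kb and 5 kb to protein-coding ends, the whole peak interval, and without peaks at small RNA genes or with a background above 20; over these the counts ran from 443 to 574 peaks and from 382 to 495 genes. Keeping the peaks whose −log10 q reached the median of the list left 280 peaks at 248 genes with a median fold of 5.94, and keeping those in the upper 25% by fold left 153 peaks at 142 genes with a median of 7.03; both settings select on strength. With curated lncRNA genes alone, which are fewer, 159 peaks lay at 127 genes, with a median fold of 4.73. The share of summits near a gene start or end was 24.9% within 500 bp, 34.7% within 1 kb and 48.2% within 2 kb. The AP-1 share of 37.8% was 37.5% with 1 window per peak, 33.3% with C or G required in the middle of the motif (6.20% of all lncRNA windows) and 39.1% with the same limit on −log10 q, alternatives chosen after seeing the data. No paired analysis was possible because each group has 1 sample. Starts were known for 397 of 498 peaks, and no motif could be searched under the other summits.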

Other observations

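Another 138 peaks lay in extended lncRNA spans but within 2 kb of a protein-coding end, and were left out by the rule. Their median fold was 3.72 (exact interval 3.36 to 3.88), and their median background 7.49 fragments. The strongest, in Gm39326, lay 88 bp from Kmt2a, another H3K4 methyltransferase gene (23.51, 20.2 to 27.2). Others were in Gm52627 beside Adamtsl4 (12.2, 9.51 to 15.5), Gm12446 beside Gm12447 (12.0, 9.28 to 15.3) and Gm46036, 45 bp from the acetyltransferase gene Kat6a (7.40, 5.73 to 9.42). Snhg9, 1762 bp from Rps2, and Snhg18, 151 bp from Sema5a, the 2 genes of the well-studied list with a summit only there, had folds of 3.47 (2.47 to 4.75) and 2.93 (2.03 to 4.10). At these sites a peak of the lncRNA gene and a peak of the protein-coding gene cannot be told apart.

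Some other lncRNA genes outside the named list had a peak. Lexis1, induced by the sterol-sensing LXR receptors and lying 58342 bp from the cholesterol exporter gene Abca1, had its summit 31 bp from its start with 18 fragments over 2.81 (4.99, 3.06 to 7.73). Wincr1, a WNT-induced RNA, had 2 peaks (5.51, 4.05 to 7.33, and 3.66, 2.48 to 5.24). Junos, named after its neighbour Jun, which encodes an AP-1 subunit, had a peak with its summit 53380 bp from Jun, with 31 fragments over 8.65 (3.32, 2.29 to 4.66). A second Junos summit, 72 bp from Jun and left out by the rule, had 38 fragments over 13.8 (2.63, 1.88 to 3.58). These genes were chosen after their values were seen.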
